A study of Mus musculus with 36 samples.

Results

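Cxcl10 and Ccl5 are chemokine genes whose transcription is tied to interferon signalling, and both were followed here in every treatment group of cultured mouse microglia and astrocytes. They are 2 of the 15385 genes of the microglial table and 2 of the 14551 genes of the astrocyte table, and were chosen by name. Both passed the filter on low values in both tables, which left 10524 microglial and 13842 astrocyte genes for testing. Microglia were measured in 24 libraries (6 treatments, n = 4) and astrocytes in 12 (4 treatments, n = 3).

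All cells came from the brains of C57BL/6 mice, 2 to 4 days old in the labels, which were pooled and grown as mixed glia for 12 days. Microglia were taken out with magnetic beads against CD11b, and astrocytes were then selected from what the microglial step left. The cells were treated for 4 h. DMSO was the vehicle. Nec-1s blocks the kinase activity of RIPK1 and was given alone or with a stimulus. T/5z was TNF with the TAK1 inhibitor 5z-7, and T/S/Z was TNF with a Smac mimetic and the caspase inhibitor zVAD. An N after the stimulus, as in T/S/Z/N or T/5z/N, stands for added Nec-1s. Astrocytes received DMSO, Nec-1s, T/S/Z and T/S/Z/N only, and the titles of their vehicle libraries spell it DSMO. No animal or cell carried a genetic change, so Nec-1s is the only handle on RIPK1 in these data.

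CXCL10 is a ligand of the receptor CXCR3 and draws activated T cells and natural killer cells. CCL5, also called RANTES, binds receptors that include CCR1 and CCR3 and draws T cells and monocytes. Both genes can be switched on by interferon regulatory factors and by NF-kB, the transcription factor that TNF activates, and both are made by glia in inflamed brain tissue.

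In microglia the 2 chemokines stood far apart before any stimulus. Ccl5 was already at 777 ± 50 FPKM (SD, n = 4) with DMSO, which was rank 60 of 15385 genes, and neither stimulus raised it past the call threshold. Cxcl10 was at 6.10 ± 1.4 FPKM with DMSO, which was rank 6814, and rose 23.8-fold under T/5z and 16.3-fold under T/S/Z. In astrocytes both were low with DMSO, at 11.3 ± 1.1 FPKM for Cxcl10 and 5.32 ± 1.3 FPKM for Ccl5 (n = 3). T/S/Z raised them 180-fold and 76.6-fold, and Cxcl10 became rank 6 of 14551 genes by level. Measured against DMSO, Nec-1s took back part of these rises, called for Cxcl10 in microglia with T/5z and for Ccl5 in astrocytes with T/S/Z. FPKM is fragments per kilobase of exon, scaled to the depth of the library, and all folds are on the scale of log2(FPKM + 1). A change was called where the fold passed 1.5 and the adjusted p of limma stayed under 0.05. The microglial values came adjusted for replicate, so their SDs leave out differences between replicate means, and the astrocyte SDs do not.

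**Figure D1:**
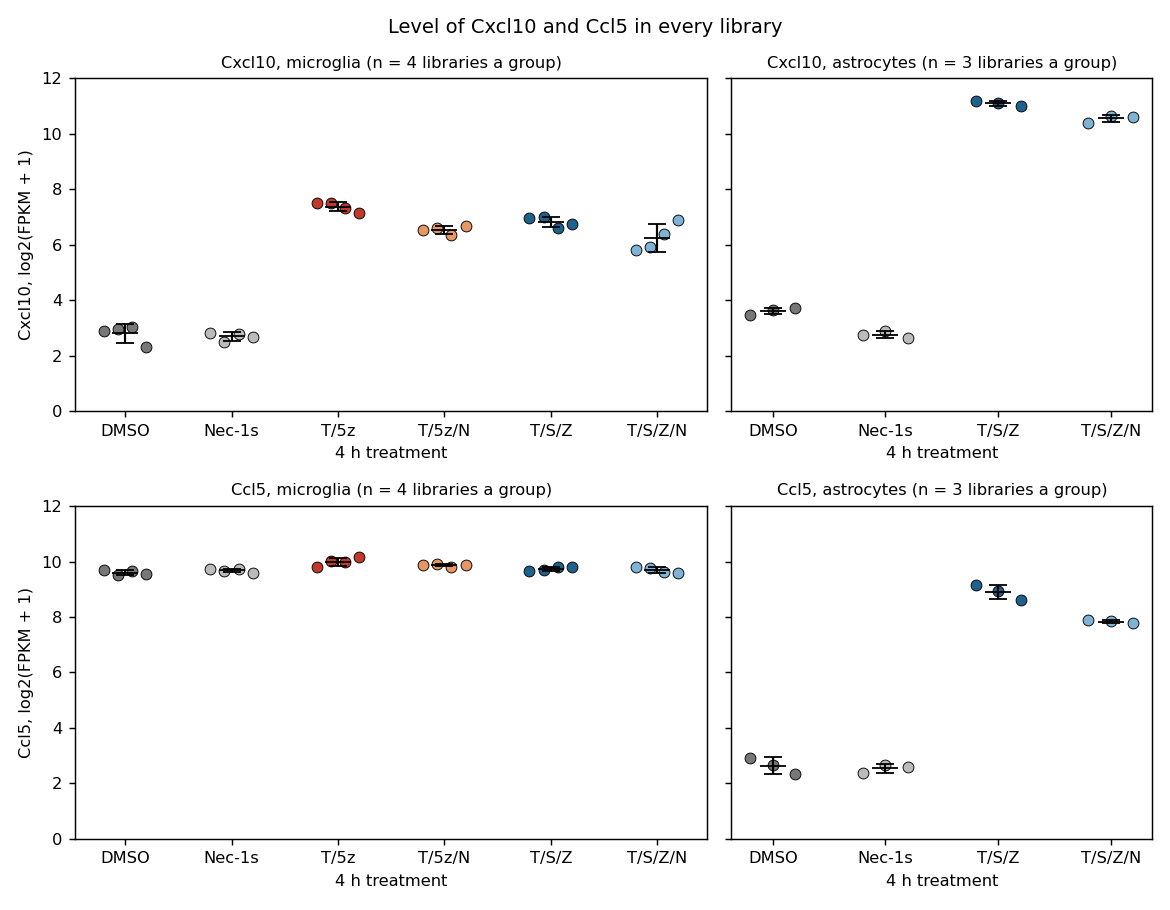
Level of Cxcl10 (top) and Ccl5 (bottom) as log2(FPKM + 1) in each library of microglia (left) and astrocytes (right), by 4 h treatment. Points are libraries and bars are the mean and SD. Ccl5 lies between 9.50 and 10.17 in every microglial library, whereas in astrocytes both genes move from under 4 to over 7 with T/S/Z.

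In the mouse build GRCm38, Cxcl10 (ENSMUSG00000034855) lies at chr5:92346638-92348889 on the minus strand and Ccl5 (ENSMUSG00000035042) at chr11:83525778-83530518 on the minus strand. Both are protein-coding genes. Cxcl10 lies inside the gene Art3 (chr5:92331827-92414628), which runs on the opposite strand, and 133 exon bases are shared in GENCODE M21. The microglial library protocol names no strand marking, so reads from those bases cannot be assigned to either gene there. Art3 was listed in the astrocyte table only, where its group means lay between 3.06 and 3.74 FPKM. No other gene overlapped Ccl5. The 250 bases before the start of Cxcl10, at chr5:92348890-92349139 on the minus strand, are shown because interferon-stimulated genes and NF-kB genes are set beside Cxcl10 further on. The sequence is from RefSeq on GRCm38.p6, 5′ to 3′, with the motif matches in capitals.
Cxcl10 promoter: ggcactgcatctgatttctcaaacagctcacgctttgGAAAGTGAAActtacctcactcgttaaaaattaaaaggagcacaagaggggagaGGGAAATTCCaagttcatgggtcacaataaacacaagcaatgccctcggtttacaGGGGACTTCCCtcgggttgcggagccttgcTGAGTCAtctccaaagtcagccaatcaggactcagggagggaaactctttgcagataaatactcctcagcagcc

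Read from the 5′ end, the first capitals are a match to the core of the interferon-stimulated response element, GAAA and GAAA parted by any 2 bases, at -213 to -204 from the start. The second are a match to the NF-kB consensus at -159 to -150. The third run holds 2 overlapping NF-kB matches at -104 to -95 and -103 to -94. The last is an AP-1 match, TGAGTCA, at -74 to -68. Both strands were searched, with TGACTCA counted as AP-1 too. Of 32851 promoter windows of the same length, 2.98% held the interferon motif, 7.25% the NF-kB consensus and 4.46% the AP-1 motif. These are matches of letters, with no binding measured here.

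The first comparison asked how far each stimulus moved the 2 genes in microglia. With DMSO, Cxcl10 read 2.88, 2.96, 3.04 and 2.32 on the log2(FPKM + 1) scale in replicates 1 to 4. With T/5z it read 7.52, 7.51, 7.31 and 7.16, and with T/S/Z 6.96, 6.99, 6.62 and 6.74. All stimulated libraries lay far above all vehicle libraries. The log2 change was 4.57 (SE 0.0885, 95% confidence interval 4.36 to 4.78) with T/5z, with an adjusted p of 3.7e-07. Only 15 of the 10524 tested genes rose more, and 11.1% of tested genes were called higher. Under T/S/Z the log2 change was 4.02 (SE 0.119, 3.75 to 4.30, adjusted p = 2.03e-07), rank 39, in a comparison where 12.2% of genes were called higher.

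Ccl5 read 9.70, 9.50, 9.65 and 9.55 with DMSO in replicates 1 to 4. With T/5z it read 9.80, 10.02, 9.97 and 10.17, and every T/5z library lay above every DMSO library. Its log2 change was 0.39 (SE 0.0866, 0.183 to 0.594, adjusted p = 0.00639), a 1.31-fold difference that was under the fold needed for a call. T/S/Z-treated microglia read 9.67, 9.70, 9.80 and 9.79, which overlapped the DMSO libraries. That log2 change was 0.13 (SE 0.0536, 0.0101 to 0.259, adjusted p = 0.0523), and it turned to -0.23 when the libraries were quantile-normalized. On the FPKM scale the group means ran from 777 with DMSO to 853 ± 39 with T/S/Z and 1020 ± 110 with T/5z.

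The 2 stimuli were also compared with each other. Cxcl10 was lower with T/S/Z than with T/5z in 4 of 4 same-numbered pairs, by a log2 change of -0.55 (SE 0.0557, adjusted p = 0.000329). The 1.46-fold difference was just under the threshold, and without replicate 4 it passed it at -0.59. Ccl5 was also lower in 4 of 4 pairs, by -0.25 (SE 0.061, adjusted p = 0.0149), and was not called. Under quantile normalization its change was -0.503 (adjusted p = 0.000653), also not called. Between T/S/Z and T/5z, 5.42% of tested genes were called higher and 4.42% lower. The plot of changes by comparison shows both genes on the same side of 0 here.

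The next comparison asked what Nec-1s changed in stimulated microglia. With T/5z/N, Cxcl10 read 6.52, 6.61, 6.35 and 6.69 in replicates 1 to 4. All 4 values lay below all 4 T/5z values and well above DMSO. The log2 change from T/5z was -0.83 (SE 0.084, -1.03 to -0.641, adjusted p = 0.000128), a 1.78-fold fall, where 4.52% of tested genes were called lower and 2.64% higher. It was lower in 4 of 4 pairs, with a log2 change of -0.463 in replicate 4 and of -1.01 to -0.901 in the others. Against DMSO, Cxcl10 with T/5z/N was still 13.4-fold higher (log2 change 3.74, SE 0.146, adjusted p = 8.86e-07), in a comparison where 6.16% of genes were called higher. Nec-1s took back 18.4 ± 6.0% of the log2 rise (SD, n = 4), or 45.2 ± 11.3% of the rise in FPKM.

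With T/S/Z/N, Cxcl10 read 5.80, 5.93, 6.38 and 6.91 in replicates 1 to 4. The group was the most scattered of the 6, with an SD of 0.50, and its highest library lay within the T/S/Z range. The log2 change from T/S/Z was -0.58 on average (SE 0.204, adjusted p = 0.0419), a 1.49-fold difference that missed the fold threshold, where 6.72% of genes were called lower and 5.35% higher. The pairs did not move as one. Cxcl10 changed by -1.16 and -1.06 in replicates 1 and 2, -0.246 in replicate 3 and 0.165 in replicate 4. Without replicate 4 the change was -0.82 (adjusted p = 0.00456) and was called, and without replicate 3 it was -0.68 (adjusted p = 0.0495) and was also called. It was not called at -0.381 (adjusted p = 0.16) without replicate 1, at -0.413 (adjusted p = 0.152) without replicate 2 or at -0.369 (adjusted p = 0.205) under quantile normalization. Against DMSO, Cxcl10 with T/S/Z/N was 10.9-fold higher (log2 change 3.45, SE 0.249, adjusted p = 2.9e-05), where 6.20% of genes were called higher. The share of the log2 rise that Nec-1s took back averaged 14.5 ± 15.5% and ran from -3.74% to 28.4%. In FPKM the share averaged 29.6 ± 34.0% and ran from -12.7% to 58.6%.

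Whether Nec-1s acted on Cxcl10 more strongly under 1 stimulus than under the other was tested as an interaction. The change under T/5z minus that under T/S/Z was -0.26 (SE 0.26, -0.819 to 0.301, adjusted p = 0.502), so a difference was not detectable, and the interval allows either direction. Leaving out a replicate gave values from -0.399 (without replicate 2) to -0.106 (without replicate 3). Of all tested genes, 6.47% were called in this test. With Nec-1s present, Cxcl10 under T/S/Z/N and T/5z/N differed by -0.29 (SE 0.148, adjusted p = 0.186), where 3.38% of genes were called in either direction. That difference was -0.15 without replicate 1, -0.159 without replicate 2 and -0.458 without replicate 4, and was called in none of these.

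For Ccl5 the values with Nec-1s were 9.88, 9.93, 9.81 and 9.88 under T/5z/N and 9.80, 9.77, 9.61 and 9.60 under T/S/Z/N. Both groups overlapped their stimulus without Nec-1s. The log2 changes were -0.12 (SE 0.0648, -0.266 to 0.032, adjusted p = 0.169) and -0.04 (SE 0.0805, -0.228 to 0.146, adjusted p = 0.679). The second turned to 0.25 under quantile normalization and to 0.01 without replicate 3 or without replicate 4. The interaction for Ccl5 was -0.08 (SE 0.104, adjusted p = 0.634). Against DMSO, Ccl5 differed by 0.27 under T/5z/N (SE 0.0612, adjusted p = 0.00832) and by 0.09 under T/S/Z/N (SE 0.0746, adjusted p = 0.336), and neither was called. No comparison of microglia therefore called Ccl5.

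**Figure D2:**
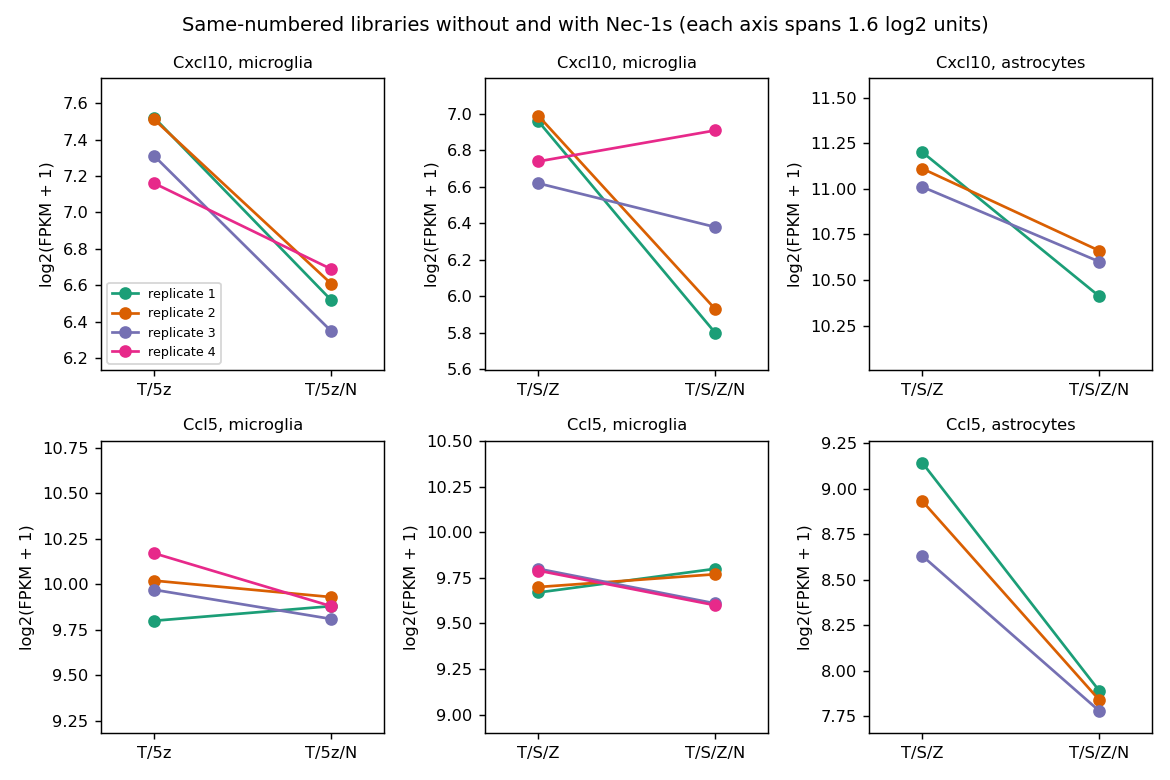
Cxcl10 (top) and Ccl5 (bottom) as log2(FPKM + 1) in same-numbered libraries without and with Nec-1s. Lines join libraries of the same replicate number, and every axis spans the same length. For Cxcl10 under T/S/Z in microglia the lines run in both directions, with a log2 change of 0.165 in replicate 4 and of -1.16 in replicate 1.

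Nec-1s without a stimulus left both genes near the vehicle level in microglia. Cxcl10 read 2.81, 2.49, 2.79 and 2.68, all within the span of the DMSO libraries, with a log2 change of -0.11 (SE 0.118, adjusted p = 0.813). Ccl5 read 9.73, 9.67, 9.74 and 9.60, with a log2 change of 0.08 (SE 0.032, adjusted p = 0.571). limma called 0 of the 10524 genes here (0%), and 892 had an unadjusted p under 0.05.

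In astrocytes T/S/Z raised both genes. Cxcl10 read 3.48, 3.64 and 3.72 on the log2(FPKM + 1) scale with DMSO in replicates 1 to 3, and 11.20, 11.11 and 11.01 with T/S/Z. The groups were separated by a wide gap. The log2 change was 7.49 (SE 0.0965, 7.27 to 7.72, adjusted p = 5.34e-08), the second largest rise among 13842 genes, 6.39% of which were called higher. Mean expression went from 11.3 to 2210 ± 150 FPKM.

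Ccl5 read 2.93, 2.67 and 2.32 with DMSO and 9.14, 8.93 and 8.63 with T/S/Z. No T/S/Z library came near the DMSO libraries. It changed by 6.26 log2 units (SE 0.0691, 6.10 to 6.42, adjusted p = 4.91e-08), the fifth largest rise. Mean expression went from 5.32 to 481 ± 83 FPKM, and by level Ccl5 went from rank 9558 to rank 109 of 14551 genes.

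Nec-1s lowered Ccl5 in T/S/Z-treated astrocytes. With T/S/Z/N it read 7.89, 7.84 and 7.78, below every T/S/Z library and above every DMSO library. The log2 change was -1.06 (SE 0.1, -1.30 to -0.827, adjusted p = 0.00174), a 2.09-fold fall seen in 3 of 3 pairs, where 1.59% of genes were called lower and 1.51% higher, a total of 429 that was 761 without replicate 3. With the ordinary variance of each gene in place of limma's moderated one, the adjusted p was 0.226. Nec-1s took back 17.0 ± 3.25% of the log2 rise (SD, n = 3), or 52.5 ± 6.68% of the rise in FPKM. Against DMSO, Ccl5 stayed 36.7-fold higher (log2 change 5.20, SE 0.101, adjusted p = 3.09e-06, and 0.0648 with the ordinary variance), where 4.36% of genes were called higher.

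Cxcl10 with T/S/Z/N read 10.41, 10.66 and 10.60 in astrocytes, also below every T/S/Z library. The log2 change was -0.55 (SE 0.112, -0.815 to -0.29, adjusted p = 0.033), a 1.47-fold difference in 3 of 3 pairs that missed the fold threshold. Without replicate 3 it was -0.62 and was called. On the FPKM scale it went from 2210 to 1510 ± 130, which is 31.5 ± 9.65% of the rise, while on the log2 scale the share was 7.32 ± 2.58%. Both shares take DMSO as the baseline for T/S/Z/N too. Between Nec-1s alone and DMSO, Cxcl10 had a log2 change of -0.86, not called, which was larger than the -0.55 under T/S/Z. A share with Nec-1s alone as the baseline was not computed. Against DMSO, Cxcl10 was 123-fold higher with T/S/Z/N (log2 change 6.94, SE 0.0623, adjusted p = 2.05e-07).

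Given alone to astrocytes, Nec-1s went with lower Cxcl10 in 3 of 3 pairs, short of a call. It read 2.75, 2.88 and 2.63 with Nec-1s, below every DMSO library, with a log2 change of -0.86 (SE 0.104, -1.10 to -0.615). The 1.81-fold difference did not pass the adjustment over all 13842 genes (adjusted p = 0.205 in limma), where 2 genes were called in either direction (0.0144%), or 16 without replicate 1. It passed when the test was limited to genes whose mean log2 value reached 3 (adjusted p = 0.000444) and when all 4 groups shared the fit (adjusted p = 0.0192). Ccl5 read 2.36, 2.67 and 2.60 with Nec-1s, overlapping DMSO, with a log2 change of -0.09 (SE 0.159, adjusted p = 0.97) that turned to 0.15 without replicate 1.

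The 2 genes differed in opposite directions between the tables, which are set side by side without a test. The labels place the cell types at different sequencing providers, so that cell type and provider cannot be told apart, whereas the study's methods name the same provider for both. With DMSO, astrocyte Ccl5 was 0.684% of the microglial value, and with T/S/Z it was 56.4%. Astrocyte Cxcl10 was 185% of the microglial value with DMSO and 1950% with T/S/Z. The tables divide by different exon lengths, 1520 bases in the microglial and 2252 in the astrocyte table for Cxcl10, and 532 and 960 for Ccl5. Equal reads would therefore give an FPKM 1.48 times higher for Cxcl10 and 1.80 times higher for Ccl5 in the microglial table.

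The 10 microglial markers summed to 8030 to 9720 FPKM over the microglial libraries, although P2ry12 and Tmem119 were low there with DMSO, at 4.27 and 9.04 FPKM. Markers of the other cell type moved with some of these results. In astrocytes, the summed level of 10 microglial markers, all listed, was 94.9 to 98.7 FPKM with DMSO, 58.3 to 60.4 with T/S/Z and 82.4 to 89.7 with T/S/Z/N, thus lower where Ccl5 was higher. The low astrocyte Ccl5 with DMSO, at 0.684% of the microglial level, lay near the share that the microglial markers Csf1r (0.689%) and C1qb (0.762%) had there, in a range over the 10 markers of 0.349% to 43.0%. Under T/S/Z these markers stood at 0.429% and 0.442%, while Ccl5 stood at 56.4%. Summed fibroblast and meningeal markers (4 genes) in astrocytes went from 370 to 410 FPKM with DMSO to between 82.5 and 92.3 with T/S/Z and between 321 and 332 with T/S/Z/N. The 1 endothelial marker listed there went from 12.0 to 12.6 FPKM with DMSO to between 2.62 and 3.27 with T/S/Z and between 8.66 and 9.86 with T/S/Z/N, and 4 oligodendrocyte lineage markers from 34.6 to 37.3 to between 24.5 and 28.9 and between 30.0 and 30.8. In microglia, 9 astrocyte markers summed to 7.17 to 9.14 FPKM with DMSO, 12.1 to 22.2 with T/5z, 13.7 to 19.9 with T/S/Z, 8.15 to 8.95 with T/5z/N and 4.85 to 6.02 with T/S/Z/N. Like the mean of microglial Cxcl10, these sums were higher with each stimulus than with DMSO and lower once Nec-1s was added. They lay within the DMSO range with T/5z/N and below it with T/S/Z/N, where Cxcl10 was 13.4-fold and 10.9-fold above DMSO. In the astrocyte table these markers summed to at least 2920 FPKM. The 4 fibroblast and meningeal markers summed to 4.65 to 6.46 FPKM in microglia with DMSO, 7.94 to 14.7 with T/5z, 5.27 to 6.3 with T/5z/N, 3.88 to 6.3 with T/S/Z and 2.43 to 3.97 with T/S/Z/N. The T/5z libraries were the ones above the DMSO range. The oligodendrocyte lineage markers, 4 of them listed, summed to 23.2 to 24.8 FPKM in microglia with DMSO, 20.7 to 22.3 with T/5z, 16.3 to 19.8 with T/S/Z, 24.0 to 26.4 with T/5z/N and 25.4 to 27.0 with T/S/Z/N, below DMSO with each stimulus but not once Nec-1s was added. The 2 endothelial markers listed summed to 4.46 to 5.8 FPKM with DMSO and to between 1.79 and 3.09 in the libraries with a stimulus, Nec-1s or not. T cell and natural killer cell markers were listed in neither table. The part of these cells in the results was not tested, and in such bulk samples fewer cells of a type and less RNA per cell cannot be told apart.

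The related CXCR3 ligand Cxcl11 was also raised by the stimuli, at lower levels. T/5z changed it by 1.45 log2 units in microglia and T/S/Z by 0.88, both called, from 0.154 ± 0.16 FPKM with DMSO to 2.14 ± 0.37 and 1.13 ± 0.34. In astrocytes it rose by 6.05 with T/S/Z, from 0.163 ± 0.16 to 76.0 ± 8.2 FPKM, and fell by 0.77 on the log2 scale when Nec-1s was added, which was called. In microglia Nec-1s gave it log2 changes of -0.34 (T/5z) and -0.16 (T/S/Z), and neither was called. The third CXCR3 ligand, Cxcl9, was called in astrocytes with T/S/Z at 0.68 and was not called in microglia, where its log2 change was -0.03 with T/5z.

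Of the receptors, Cxcr3 was not among the tested genes of either table. Ccr1, a CCL5 receptor, fell by 1.78 under T/5z but rose by 0.73 under T/S/Z, and Nec-1s lowered it after T/S/Z by a log2 change of -1.27. Ccr3 rose by 0.69 with T/S/Z only, and between the stimuli it was higher with T/S/Z by 0.63. Against DMSO, T/5z lowered 13.3% of tested genes and T/S/Z 17.5%. In astrocytes Ccr1 was near 1 FPKM and was not called with T/S/Z, with a log2 change of -0.42, and it was 0.61 higher with T/S/Z/N than with T/S/Z, which was called.

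Among interferon genes, Ifnb1, which encodes interferon beta, was the one measured in microglia, and the astrocyte table listed none of the 5 on the list. Ifnb1 was near the lower limit at 0.0855 ± 0.17 FPKM with DMSO and reached 0.690 ± 0.27 under T/5z and 2.17 ± 0.82 under T/S/Z. T/5z changed it by 0.64 log2 units and T/S/Z by 1.52, both called. It was thus higher with T/S/Z than with T/5z, by 0.88 (SE 0.202, adjusted p = 0.0123), the reverse of the order of Cxcl10. Nec-1s lowered it by 0.92 after T/S/Z, which was called, and its log2 change after T/5z was -0.55, which was not.

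Interferon-stimulated genes, a list of 32 that holds neither chemokine, moved differently under the 2 stimuli in microglia. T/5z gave 17 of 32 called higher and 1 lower, beside 11.1% and 13.3% of all tested genes, and the median log2 change was 0.69 beside -0.06 over all tested genes. Gbp5, a guanylate-binding protein, rose by 5.31, Parp14 by 1.99 and Ifit1 by 1.94, whereas Oas3 fell by 0.84. T/S/Z gave 6 called higher and 2 lower, beside 12.2% and 17.5% of all tested genes, so the count called higher was not far from that over all genes. The median was -0.01 beside -0.08 over all genes, with Gbp5 at 1.88 and Rsad2, which encodes viperin, at 1.23. Compared directly, 15 of the 32 were called lower with T/S/Z than with T/5z, among them Gbp5 (-3.43), Ifi47 (-1.55) and Iigp1 (-1.29). Over all tested genes 4.42% were called lower there. The median of the list was -0.55 beside -0.0255 over all tested genes, and the log2 change of Cxcl10 was also -0.55.

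In astrocytes with T/S/Z, 28 of the 30 listed interferon-stimulated genes were called higher and 0 lower, beside 6.39% of all tested genes called higher and 8.99% lower. With the ordinary variance of each gene 8 of the 30 were called. Their median log2 change was 2.17 beside -0.11 over all tested genes, with Gbp5 at 6.22, Rsad2 at 4.75 and Gbp2 at 4.27. Adding Nec-1s lowered 11 of the 30, beside 1.59% of all tested genes, and 1 with the ordinary variance of each gene. The median was -0.43 beside 0.03, and with Nec-1s alone against DMSO it was -0.205 beside 0.0007, with 0 of the 30 called. The examples for T/S/Z/N against T/S/Z were Rsad2 (-0.96), Mx1 (-0.94) and Isg15 (-0.86). Ccl5 fell by 1.06 in that comparison, more than these examples, and Cxcl10 changed by -0.55, which was not called. In microglia Nec-1s lowered 2 of 32 after T/5z, Gbp5 (-1.59) and Ifit1 (-0.64), and 1 of 32 after T/S/Z, Rsad2 (-0.59). These counts are near the shares over all tested genes, 4.52% and 6.72% called lower, and are no result about the list.

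**Figure D3:**
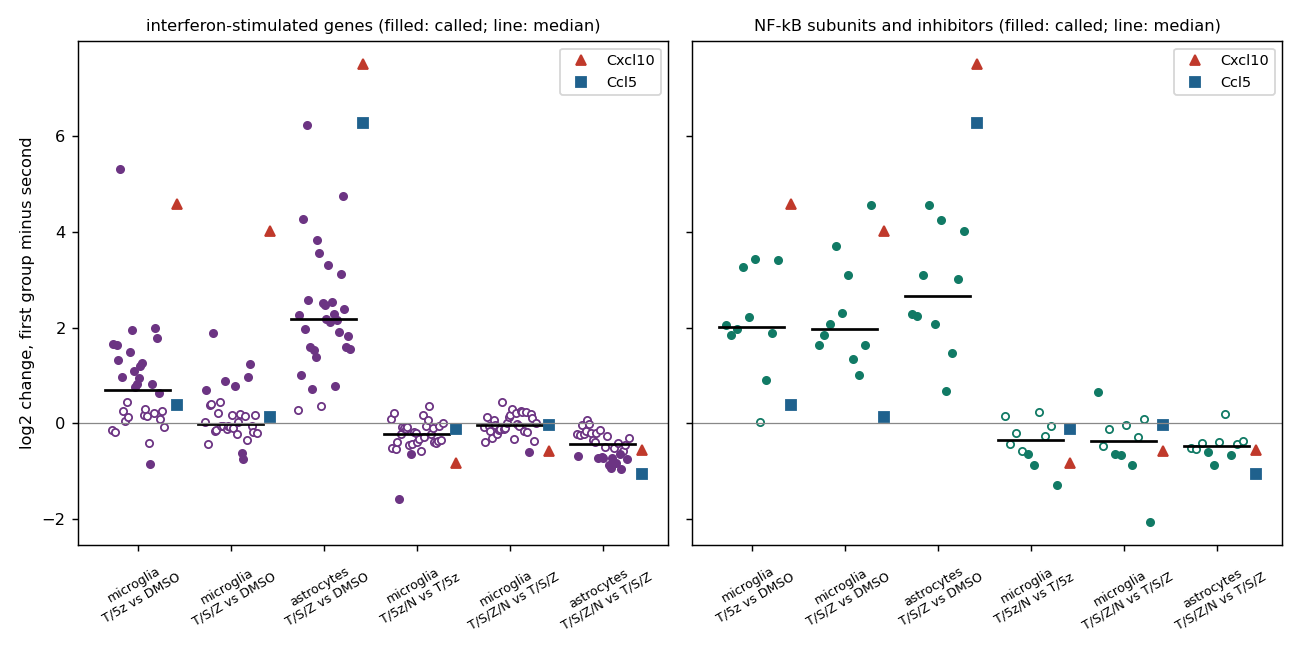
Log2 change of each interferon-stimulated gene (left) and each NF-kB subunit or inhibitor gene (right) in 6 comparisons, first group minus second. Filled points were called, lines are list medians, and the triangle and square mark Cxcl10 and Ccl5. In microglia the median of the interferon list is 0.69 under T/5z but -0.01 under T/S/Z. Its astrocyte median is 2.17, while the NF-kB list stays between 1.96 and 2.65 under the stimuli.

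Of the 10 genes of NF-kB subunits and inhibitors, many of them targets of NF-kB themselves, at least 9 were called higher under each stimulus, beside 11.1% (T/5z) and 12.2% (T/S/Z) of all tested genes in microglia and 6.39% in astrocytes. In T/5z-treated microglia 9 of 10 were called higher (median 2.02), led by Nfkbie at 3.44, Tnfaip3 at 3.41 and Nfkbia at 3.27. All 10 were called higher in T/S/Z-treated microglia (median 1.96), led by Tnfaip3 at 4.55. In astrocytes all 10 were called too (median 2.65), led by Nfkbia at 4.55. Nec-1s lowered 3 of 10 after T/5z, beside 4.52% of all tested genes, among them Tnfaip3 by a log2 change of -1.29. After T/S/Z in microglia it lowered 4, beside 6.72%, among them Tnfaip3 by a log2 change of -2.06, and raised Bcl3 by 0.65. Under quantile normalization 2 were lower, and after centring on the library median 0 were higher. In astrocytes it lowered 3, beside 1.59%, among them Nfkbib by 0.86, but 1 without replicate 1 or without replicate 2 and 0 with the ordinary variance. Side by side in microglia, T/5z and then T/S/Z gave Cxcl10 log2 changes of 4.57 and 4.02, NF-kB medians of 2.02 and 1.96, and interferon-stimulated medians of 0.69 and -0.01. Between T/S/Z and T/5z directly, the NF-kB median was 0.0869, with 2 called higher and 0 lower, beside 5.42% and 4.42% of all tested genes. The interferon-stimulated median was -0.55 there, as was the change of Cxcl10. What sets the level of Cxcl10 was not tested.

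Genes upstream of the interferon response were counted beside all tested genes, of which T/5z raised 11.1% and lowered 13.3% in microglia, T/S/Z raised 12.2% and lowered 17.5% there, and T/S/Z raised 6.39% in astrocytes. Of 8 IRF factors and kinases in microglia, 2 were called higher and 2 lower with each stimulus. Irf1, an activator of many interferon-stimulated genes, rose by 3.16 under T/5z and 1.40 under T/S/Z, and Ikbke, a kinase of IRF3, by 2.39 and 1.89, while Irf8 fell by 1.87 and 0.97. After T/5z, Nec-1s lowered Irf1 by 0.90 and raised Irf8 by 0.77. In astrocytes 5 of the 8 were called higher with T/S/Z, led by Irf1 at 3.13 and Irf5 at 1.89, and Irf7 fell by 0.70 with Nec-1s. Of 10 interferon receptor and JAK-STAT genes, 3 were higher in T/5z-treated microglia, led by Jak2 at 1.62, and T/S/Z raised 2 and lowered 1. In astrocytes 5 were higher, led by Ifngr2 at 1.62. Of the nucleic acid sensors in the tables, 2 of 7 were higher and 1 lower with T/5z, led by Mb21d1, which encodes cGAS, at 1.59. T/S/Z raised 1 of 7 and lowered 1 in microglia, and raised 3 of 6 in astrocytes, led by Zbp1 at 1.78. The microglial counts with T/S/Z for the receptor genes and the sensors are about the share over all genes.

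The genes whose pattern was most like each chemokine differed between the cell types. Over the 24 microglial libraries, Cxcl10 was followed most closely by Bcl2a1a and Clec4e (Pearson's r = 0.993 each) and by Icam1, St3gal1 and Orai2 (r = 0.992 each). For microglial Ccl5 the closest were Psmb10 (r = 0.89), Ppt2 (0.886), Elavl4 (0.881), Parp10 (0.874) and Bri3 (0.87), and the r between Ccl5 and Cxcl10 was 0.596. Over the 12 astrocyte libraries the r between the chemokines was 0.992. Ccl2, Irf1, Tlr2, Ccl7 and Tnfaip3 were closest to Cxcl10 (0.998 each). H2-Q4 and Relb (0.999 each) and Rnd1, Bach1 and Bid (0.998 each) were closest to Ccl5. These values describe libraries that share treatments, so any gene that follows the stimulus scores high.

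The order of the Cxcl10 levels in microglia was T/5z, T/S/Z, T/5z/N, T/S/Z/N, DMSO and Nec-1s. T/S/Z and T/5z/N overlapped in their libraries (6.62 to 6.99 against 6.35 to 6.69). So did T/S/Z/N and T/5z/N, and DMSO and Nec-1s. For Ccl5 the order was T/5z, T/5z/N, T/S/Z, T/S/Z/N, Nec-1s and DMSO, and neighbours overlapped except T/5z/N (at least 9.813) and T/S/Z (at most 9.801). In astrocytes both genes had the order T/S/Z, T/S/Z/N, DMSO and Nec-1s. For Cxcl10 no neighbours overlapped there, and for Ccl5 only DMSO and Nec-1s did.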

How the data were processed

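RNA-seq libraries were read from the deposited tables of log2(FPKM + 1). The authors aligned, quantified, normalized and log2-transformed the reads in OmicSoft Array Studio. The aligner is not given in the sources used here. The 75th percentile lay between 4.11 and 4.16 in microglial and between 4.73 and 4.74 in astrocyte libraries. Microglial values had been adjusted so that the mean of each gene was equal across replicates (largest difference 6.67e-05), which leaves some values below 0. Microglial SDs and overlaps between libraries therefore leave out differences between replicate means. The astrocyte values had no such adjustment (largest difference 5.16). The tables hold no counts. Of low values, 59.0% to 64.8% lay within 0.1 of a whole multiple of a common step in the libraries that had one, so reads were not recovered and the depth is unknown. The labels place microglial and astrocyte libraries at different providers, whereas the methods name the same one for both.

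Genes with a log2 value of at least 1 in 4 (microglia) or 3 (astrocytes) libraries were tested with limma 3.58.1 in R 4.3.3, with the variance trend, the 2 groups compared and the replicate number as a block, since the study compared pairs. p-values were two-sided, adjusted over all tested genes (Benjamini-Hochberg). Same-numbered deviations correlated at a median of -0.249 in microglia, where the adjustment sets the sign, and 0.0408 in astrocytes. The methods describe replicates as separate litters, while the labels name no litter. No libraries were duplicates (highest correlation 0.998). The fits were tested on simulated data. Alternatives left out each replicate, the block or the filter, and changed the filter, the pseudocount, the scaling, the variance or the groups fitted. The 2 genes and all lists were chosen with earlier results of these data known. Named list genes had the largest changes in the comparison described, with the listed ligands and receptors, and the 5 closest genes by Pearson's r. The marker lists are described by their sums, and the 4 markers named beside them were chosen after their values were seen. A listed receptor gene is not reported here.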

Additional observations from a re-analysis of the deposited data

How the results depend on the processing

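Of 356 values recomputed for 28 log2 changes of the 2 genes, 340 kept their direction and side of the threshold, and of 22 shares of the rise taken back, 19 moved by less than 1 SD over replicates, an SD that was larger than the share itself for microglial Cxcl10 with T/S/Z. Microglial values had already been adjusted for replicate, so leaving out the block cannot show there whether replicate matters. Without the replicate block no call of either gene changed. The changes themselves cannot differ there, since every replicate number is in both groups (-0.83 for Cxcl10 with T/5z/N against T/5z in microglia, adjusted p = 4.4e-05 without and 0.000128 with the block), and the astrocyte genes called with Nec-1s alone went from 2 to 0, or to 16 without replicate 1. Under quantile normalization microglial Ccl5 turned to -0.235 (T/S/Z against DMSO) and 0.246 (T/S/Z/N against T/S/Z), and Cxcl10 between T/S/Z and T/5z became called at -0.659. Centring on the library median made Cxcl10 called at -0.648 for T/S/Z/N against T/S/Z in microglia. With the ordinary variance of each gene, astrocyte Ccl5 was no longer called after T/S/Z/N against T/S/Z (-1.06, adjusted p = 0.226) or DMSO (5.20, adjusted p = 0.0648). Astrocyte Cxcl10 with Nec-1s alone (-0.86) became called with the stricter filter and with all groups in the fit. The share of the rise over DMSO taken back by Nec-1s, on the FPKM scale, was 45.2%, 29.6% and 31.5% for Cxcl10 (microglia T/5z, microglia T/S/Z, astrocytes T/S/Z) and 52.5% for Ccl5 in astrocytes. It was not computed for microglial Ccl5, whose rise was not called. The causes were not tested.

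Leaving out each replicate gave a range of -0.822 to -0.381 for Cxcl10 with T/S/Z/N against T/S/Z in microglia and -0.621 to -0.431 in astrocytes, -0.101 to 0.0102 for microglial Ccl5 in the same comparison (0.0062 without replicate 4), -0.594 to -0.503 for Cxcl10 between T/S/Z and T/5z and -0.458 to -0.15 between T/S/Z/N and T/5z/N, -0.399 to -0.106 for its interaction, -0.263 to 0.0116 for microglial Cxcl10 and -0.279 to 0.146 for astrocyte Ccl5 with Nec-1s alone.

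Counts of called genes depended more on the settings. With the ordinary variance, astrocyte calls went from 2130 to 281 with T/S/Z, from 1257 to 50 with T/S/Z/N against DMSO and from 429 to 3 with T/S/Z/N against T/S/Z (761 without replicate 3), where the interferon-stimulated genes called went from 28 to 8, from 26 to 0 and from 11 to 1. Over all alternatives microglial counts ranged from 1463 to 3205 around 2563 with T/5z, from 1633 to 3838 around 3118 with T/S/Z, from 314 to 1239 around 754 with T/5z/N against T/5z and from 514 to 1976 around 1270 with T/S/Z/N against T/S/Z, the ends coming from the constant added before the log except for 1463, which came from the stricter filter. Of called genes, 41.1% were higher with T/S/Z in microglia and 52.7% after centring, 44.3% and 28.9% with T/S/Z/N against T/S/Z, and in astrocytes 41.5% with T/S/Z and 52.1% after quantile normalization.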
